A study of Mus musculus with 9 samples.

Results

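A set of 10 genes of bone morphogenetic protein (BMP) signaling were examined for the positions at which 2 chromatin remodeling proteins were detected in mouse oviduct muscle. They are 3 ligands (*Bmp2*, *Bmp4* and *Bmp7*), 3 type I receptors (*Bmpr1a*, *Bmpr1b* and *Acvr1*), the type II receptor *Bmpr2*, and 3 target genes (*Id1*, *Id2* and *Id3*). The 10 were listed by name, out of 21938 protein-coding genes on the autosomes, X and Y. For each, every peak with its summit in the gene body or within 20 kb on either side was taken. A promoter peak had its summit within 2 kb of an annotated start of the gene in GENCODE M21, and a distal peak lay in the window but within 2 kb of no annotated start. Overlapping peaks of the 6 replicate lists were merged, and 90 of the 82959 merged regions of the series fell in the 10 windows.

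The cells were primary oviductal muscle cells from WT mice aged 8 to 12 weeks, mated with stud males and collected on day 2 of pregnancy. They were kept for hours in serum-containing medium, fixed, and used at 50000 cells per library for ChIC-Seq, in which a protein A–micrococcal nuclease fusion held by an antibody cuts the DNA around its target. There were 3 libraries for PBRM1 (also named BAF180, found only in the PBAF type of SWI/SNF remodeling complex) and 3 for BRG1 (the ATPase encoded by *Smarca4*, shared by several SWI/SNF forms), and the 3 IgG libraries were not analysed here. Nothing in the labels ties a replicate to an animal, so the p-values measure only the spread between these libraries. The PBRM1 libraries held 18126049 to 23992352 fragments and the BRG1 libraries 14284532 to 15897724, so depth and antibody cannot be told apart. As a check of the label, the smooth muscle genes *Acta2* and *Tagln* had promoter peaks in all 6 lists, *Des* in 4, *Myh11* in 1 and *Cnn1* in 0, whereas the epithelial genes *Pax8*, *Epcam*, *Ovgp1* and *Foxj1* and the leukocyte gene *Ptprc* had none in the replicate lists. *Cdh1* had 3, *Krt8* 2 and *Pecam1* 1. The pooled lists did hold promoter peaks of *Foxj1* and *Pax8* with both antibodies and of *Epcam* with BRG1, and that of *Foxj1* (0.985 with PBRM1 and 1.31 with BRG1, as pileup scaled to 1000000 fragments) was near that of *Tagln* (1.13 and 1.26). Promoter peaks do not measure expression, and the part of other cell types in the results was not tested.

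BMP ligands are secreted dimers that bring type I and type II receptor kinases together on the cell surface. The type II receptor activates the type I receptor, which phosphorylates SMAD1, SMAD5 and SMAD9, and these enter the nucleus with SMAD4. The *Id* genes encode helix-loop-helix proteins without a DNA-binding region, which hold partner transcription factors off DNA, and they are among the most direct transcriptional targets of the pathway in many cell types. In smooth muscle the pathway is known for its part in growth control and differentiation, and inherited loss of *Bmpr2* function is a cause of pulmonary arterial hypertension.

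Activated SMADs bind GC-rich sequence such as GGCGCC, and SMAD4 binds GTCT. The composite of both, GGCGCC followed after a spacing of 5 bases by GTCT, is the arrangement of known BMP response elements. Within 150 bp on either side of the summit, counting matches on either strand, it was present in 3 of the 90 regions, all of them at *Id2* or *Id3*. Of all 82959 regions, 29 held it, or 0.035%. The motif and the *Id* genes were both chosen for their known place in BMP signaling. These counts are therefore a description and not a test of enrichment. Printed first are upstream *Id* regions, each the tallest promoter or distal region of its gene by mean height and in at least 4 lists. They are followed by the single regions of *Bmpr1a* and *Bmpr1b* that lay away from a start and were found by both antibodies in all libraries. The tallest distal region of *Bmp7*, in 5 lists, is not printed. Each sequence is 299 bases of the plus strand of GRCm38.p6 centred on the summit, holds no annotated exon, and has in capitals each match on either strand to GGCGCC, GTCTAGAC, the composite or TGANTCA (core letters bound by AP-1 factors).

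Id1, 1.09 kb upstream, chr2:152735013-152735311: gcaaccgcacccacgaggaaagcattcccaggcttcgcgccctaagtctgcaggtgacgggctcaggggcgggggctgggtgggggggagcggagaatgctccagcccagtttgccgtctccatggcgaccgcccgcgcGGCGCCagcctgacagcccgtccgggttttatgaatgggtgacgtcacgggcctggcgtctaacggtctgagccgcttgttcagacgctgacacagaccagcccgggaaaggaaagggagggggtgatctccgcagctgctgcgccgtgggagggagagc
Id2, 1.79 kb upstream, chr12:25098778-25099076: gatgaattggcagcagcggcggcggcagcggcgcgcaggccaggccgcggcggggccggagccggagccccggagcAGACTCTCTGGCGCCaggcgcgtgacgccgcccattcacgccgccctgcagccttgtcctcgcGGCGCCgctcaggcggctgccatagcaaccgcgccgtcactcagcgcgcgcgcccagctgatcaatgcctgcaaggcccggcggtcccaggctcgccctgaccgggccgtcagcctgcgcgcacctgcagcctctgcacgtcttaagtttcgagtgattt
Id3, 3.07 kb upstream, chr4:136140275-136140573: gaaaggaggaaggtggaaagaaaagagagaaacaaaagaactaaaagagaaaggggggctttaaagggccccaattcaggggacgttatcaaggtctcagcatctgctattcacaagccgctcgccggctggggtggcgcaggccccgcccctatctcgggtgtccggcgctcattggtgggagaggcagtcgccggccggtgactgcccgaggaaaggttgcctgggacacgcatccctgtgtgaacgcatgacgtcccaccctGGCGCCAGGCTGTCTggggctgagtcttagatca
Bmpr1a, 5.01 kb upstream, chr14:34508202-34508500: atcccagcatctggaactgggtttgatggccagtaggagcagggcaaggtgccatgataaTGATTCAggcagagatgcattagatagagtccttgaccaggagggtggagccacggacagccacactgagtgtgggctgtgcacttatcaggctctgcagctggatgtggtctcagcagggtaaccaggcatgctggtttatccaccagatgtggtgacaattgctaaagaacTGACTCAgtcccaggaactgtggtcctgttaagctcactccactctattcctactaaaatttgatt
Bmpr1b, intron, chr3:142050742-142051040: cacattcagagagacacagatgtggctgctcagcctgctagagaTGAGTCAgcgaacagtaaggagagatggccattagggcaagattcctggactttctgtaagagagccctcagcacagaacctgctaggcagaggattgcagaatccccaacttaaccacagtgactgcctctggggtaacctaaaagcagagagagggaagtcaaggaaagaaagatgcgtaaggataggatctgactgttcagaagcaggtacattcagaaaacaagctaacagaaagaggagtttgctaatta

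The *Id3* run holds the composite on the plus strand and the *Id2* run holds it on the minus strand, next to a further GGCGCC. Of the marked motifs, the *Id1* run has GGCGCC alone. GTCT by itself was not marked, and the *Id1* run does hold it outside the composite arrangement. The *Bmpr1a* and *Bmpr1b* runs have no GC-rich element but hold TGANTCA, in 2 places and 1 place. Their GC content was 50.5% and 47.2%, against 67.2%, 72.6% and 59.2% in the *Id1*, *Id2* and *Id3* runs.

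All 10 genes had a promoter peak in at least 1 of the 6 replicate lists, against 34.9% of all protein-coding genes with none. Promoter peaks were found in all 6 lists for 4 of the 10, *Bmp2*, *Bmpr2*, *Id2* and *Id3*, where the background over all protein-coding genes was 41.4%. All 3 BRG1 lists held a promoter peak for 7 genes, the same 4 with *Bmpr1a*, *Bmpr1b* and *Id1* (background 49.6%), and all 3 PBRM1 lists held one for the 4 alone (background 43.8%). With PBRM1 replicate 3 left out, *Id1* joined the genes with a peak in every list. The shares for all 6 lists and for all PBRM1 lists lie near those of genes at large. Those for all BRG1 lists and for any list lie above them, over only 10 genes, and the difference was not tested. In the lists that the authors called on pooled replicates, all 10 genes had a promoter peak with each antibody, against 65.4% of genes for PBRM1 and 67.3% for BRG1. Peak height below is the pileup, the number of fragments over the summit, scaled to 1000000 fragments of the library and written ppm. A list without a peak there has no height, which does not mean a height of 0.

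**Figure D1:**
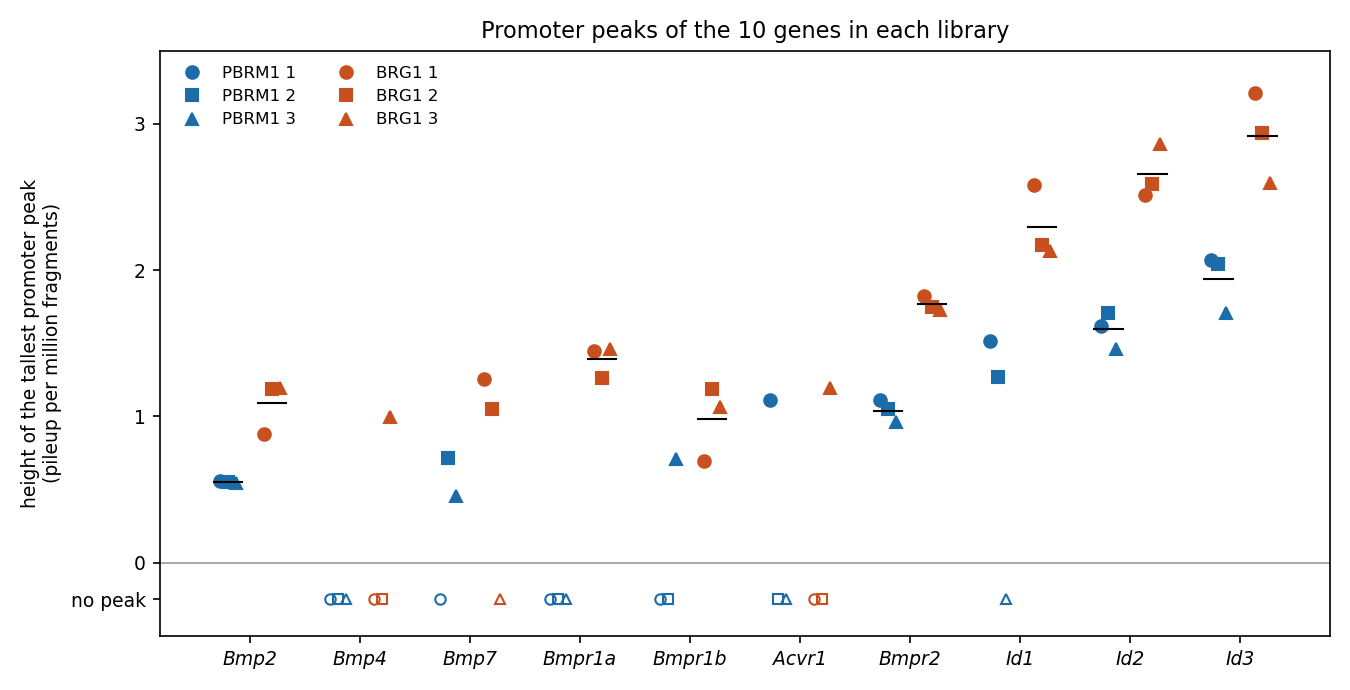
Height of the tallest promoter peak (y axis, ppm) of each gene (x axis) in the 3 PBRM1 and 3 BRG1 libraries, one marker per replicate. Black bars are means where all 3 libraries had a peak, and open markers below the axis are libraries without a peak. The 3 BRG1 markers lie above the 3 PBRM1 markers for *Bmp2*, *Bmpr2*, *Id2* and *Id3*, as for 73.4% of the 9092 genes with a promoter peak in all 6 lists. No PBRM1 library has a peak at *Bmpr1a*.

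Among the ligands, *Bmp2* alone had a promoter peak in every library. Its heights were 0.556, 0.552 and 0.542 ppm with PBRM1 and 0.881, 1.19 and 1.20 with BRG1, from summits of only 10 to 18 fragments. The groups did not overlap, and BRG1 was 1.96-fold higher (exact permutation test, two-sided, p = 0.1, the lowest value possible with 3 against 3). That order held for 73.4% of the genes with a promoter peak in all 6 lists. The merged region (chr2:133552158-133553506) lay over the first exon, and its tallest peaks did not share a summit: those of the BRG1 libraries lay 0.262, 0.428 and 0.113 kb from the start and those of the PBRM1 libraries 1.23, 1.32 and 0.472 kb. With promoters taken as 1 kb in place of 2 kb, *Bmp2* was therefore no longer in every list, and only *Bmpr2*, *Id2* and *Id3* were. The *Bmp2* promoter was a low one: of the 9092 genes with a promoter peak in all 6 lists, 1.815% had a lower mean height.

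*Bmp4*, which shares most receptors with *Bmp2*, had a promoter peak only in BRG1 replicate 3, at 0.998 ppm. That library held a pair of regions there, and one of them lay over an exon of *Gm15222*, an antisense transcript, from which these data cannot separate *Bmp4*. *Bmp7*, a ligand that also signals through ACVR1, had promoter peaks of 0.717 and 0.459 ppm in PBRM1 replicates 2 and 3 and of 1.26 and 1.05 in BRG1 replicates 1 and 2. No library of one antibody overlapped the other among those with a peak, but each antibody lacked 1 library. These peaks belonged to separate regions, 0.104 kb and 0.758 kb after the start.

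The tallest distal region of *Bmp7* lay past the end of the gene (chr2:172867351-172867813), 72.6 kb from the nearest start. Its heights were 1.31, 1.05 and 0.667 ppm with PBRM1 and 1.07 and 1.20 with BRG1 replicates 1 and 3, so the antibodies overlapped. A further pair of regions near it lay at the start of the microRNA gene *Gm22773*. *Bmp2* and *Bmp4* each had a single distal region, found in 1 list, with heights of 0.944 and 1.05 ppm. The 3 ligands thus had 3 distal regions in all, against 59 for the 4 receptors, whose windows are longer, and 5 for the *Id* genes.

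The receptors differed in where their regions lay. *Bmpr2*, whose product starts the receptor cascade, had a promoter peak in every library, with 1.11, 1.05 and 0.959 ppm for PBRM1 and 1.82, 1.75 and 1.73 for BRG1. The groups did not overlap, and BRG1 was 1.70-fold higher (exact permutation p = 0.1). Again, 73.4% of genes with a promoter peak in every list had that order. With the heights of all its called promoter peaks summed, the groups overlapped and BRG1 was 1.19-fold higher (exact permutation p = 0.4). The number of called peaks in such a sum differed between libraries. The summit of the region in all 6 lists (chr1:59762272-59763651) lay 0.103 kb after the start, in the first exon. Of its 9 distal regions 7 came from 1 list, and the tallest, in an intron (chr1:59833774-59834025), had 1.06 and 0.883 ppm in PBRM1 replicates 1 and 2 and 1.07 in BRG1 replicate 1.

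*Bmpr1a*, a type I receptor for BMP2 and BMP4, had promoter heights of 1.45, 1.26 and 1.46 ppm with BRG1 and no peak with PBRM1. That pattern was rare, with 0.748% of protein-coding genes, and no gene of the 10 had the opposite one (background 0.105%). It depended on the calling threshold: with peaks kept only at −log10 q of at least 5, *Bmpr1a* was no longer in every BRG1 list, and the pooled PBRM1 list had a promoter peak there of 0.808 ppm and 2.57-fold enrichment, beside 1.15 ppm and 3.54-fold for BRG1. The antisense transcript *Gm17110* lies beside these peaks, with a start within 2 kb of them, so the promoter is not that of *Bmpr1a* alone. With PBRM1 replicate 3 left out, *Bmpr1b* showed the same pattern as *Bmpr1a*. A region 5.01 kb upstream was in every list of both antibodies. This region (printed above, within chr14:34508018-34509233) had 1.16, 1.27 and 1.50 ppm with PBRM1 and 1.38, 1.54 and 1.66 with BRG1. The groups overlapped there, and the log2 difference was −0.23 (SE 0.20, limma adjusted p = 0.336). Among distal regions in at least 4 lists, 88.6% were lower than this one.

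*Bmpr1b*, a type I receptor with a long gene of 332290 bp, had 34 regions, of which 30 were distal and 16 of those came from 1 list. Per 100 kb of window there were 8.06 distal regions, and 96.7% of protein-coding genes had fewer, with a median of 1.65. Its promoter peaks were weak and uneven: 0.709 ppm in PBRM1 replicate 3, and 0.692, 1.19 and 1.06 in the BRG1 libraries. They were spread over 4 regions at several of its 5 annotated starts. The region at the first start (chr3:142169243-142169689) was in all 3 BRG1 lists and no PBRM1 replicate list, as were 0.916% of all regions. The pooled PBRM1 list held a peak over it, of 0.404 ppm and 2.44-fold enrichment.

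The intronic region of *Bmpr1b* printed above (within chr3:142050508-142051039) had the highest mean of its distal regions and was the single distal region in all 6 lists. Heights were 1.16, 1.05 and 0.917 ppm with PBRM1 and 1.13, 1.26 and 0.998 with BRG1. The antibodies overlapped, with a log2 difference of −0.12 (SE 0.22, limma adjusted p = 0.653). The other distal regions of *Bmpr1b* ran from 0.377 to 1.45 ppm, and 6 of the 30 were in at least 4 lists. In the replicate lists, a different intron region (chr3:142076995-142077429) was held by PBRM1 alone, at 0.808, 0.828 and 0.584 ppm. The pooled BRG1 list did hold a peak over this region, of 0.332 ppm and 3.22-fold enrichment. It was the single region of the 90 in all 3 PBRM1 replicate lists and no BRG1 replicate list, against 1.22% of all regions.

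*Acvr1*, the type I receptor also called ALK2, resembled *Bmpr1b* in having many scattered regions. Of its 18 regions, 16 were distal and 10 of those came from 1 list, and its 7.32 distal regions per 100 kb exceeded 95.3% of genes. Its promoter peak was found in PBRM1 replicate 1 at 1.11 ppm and in BRG1 replicate 3 at 1.20, and it also lay within 2 kb of a start of *Upp2*. The tallest distal region by mean, in an intron (chr2:58532339-58532624), was in PBRM1 replicate 3 at 0.875 ppm and BRG1 replicate 1 at 1.57. The distal region in the most lists, also intronic and 32.1 kb from the nearest start (chr2:58484077-58484852), had 0.758 and 0.625 ppm in PBRM1 replicates 1 and 3 and 0.881, 1.12 and 1.46 with BRG1. None of the BRG1 heights fell as low as the PBRM1 ones. Per 100 kb, *Id3* (7.099 distal regions, more than 94.5% of genes) and *Bmpr2* (5.78, more than 89.8%) were also dense.

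**Figure D2:**
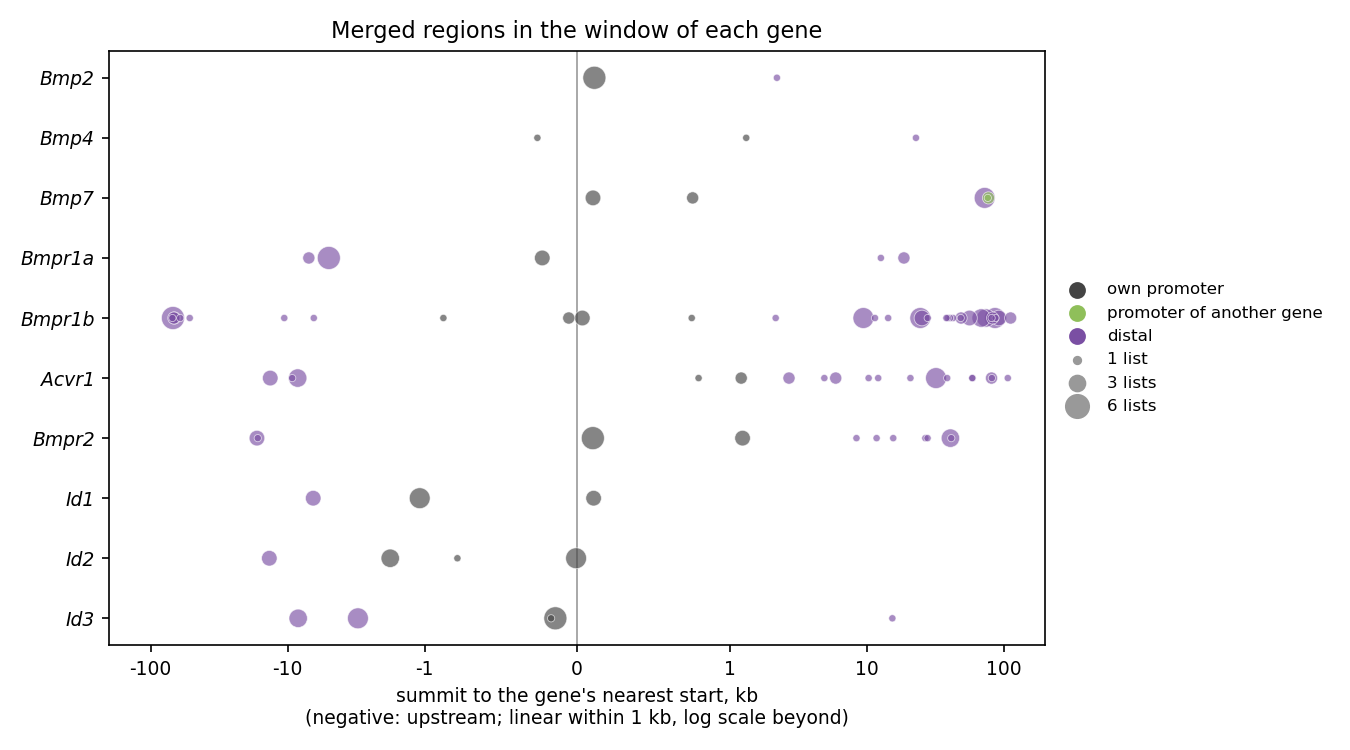
Each circle is a merged region, placed by the distance in kb of its summit from the nearest start of its gene (x axis, negative is upstream, linear within 1 kb and logarithmic beyond) for each of the 10 genes (y axis). Circle area grows with the number of the 6 lists that hold the region, and color gives its class. *Bmpr1b* has 34 regions and *Acvr1* 18 in windows of 372.3 and 218.5 kb, while *Id1*, *Id2* and *Id3* have 3, 4 and 5 in windows of 41.2, 43.3 and 42.3 kb.

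The *Id* targets carried the tallest peaks of the 10 genes. *Id3* had 2.07, 2.04 and 1.71 ppm with PBRM1 and 3.21, 2.94 and 2.59 with BRG1 at its promoter. *Id2* followed with 1.62, 1.71 and 1.46 against 2.52, 2.59 and 2.86. At neither gene did the antibodies overlap, and BRG1 was 1.50-fold higher at *Id3* and 1.67-fold higher at *Id2* (exact permutation p = 0.1 for each). The same order was found for 73.4% of genes with a promoter peak in every list. The *Id2* heights came from different sites, the start in PBRM1 replicates 1 and 2 and BRG1 replicates 1 and 3 and a region 1.79 kb upstream in PBRM1 replicate 3 and BRG1 replicate 2, and no *Id2* region was in all 6 lists. Over the start alone, without PBRM1 replicate 3, which had no peak there, the log2 difference was −0.60 (SE 0.20, limma adjusted p = 0.0131 in a fit that leaves out missing values). With all called promoter peaks summed, BRG1 was 2.57-fold higher at *Id2*. PBRM1 replicates 1 and 2 had no called peak at the upstream region, where all BRG1 libraries had one. The sum thus also depends on how many peaks were called. *Id1* had 1.52 and 1.27 ppm in PBRM1 replicates 1 and 2, no peak in replicate 3, and 2.58, 2.17 and 2.13 with BRG1.

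Each *Id* gene had upstream regions beside the one at its start. At *Id2* the region over the start (chr12:25095913-25096532) was held by PBRM1 replicates 1 and 2 and all BRG1 lists, and the region 1.79 kb upstream (chr12:25098608-25099051), which carries the composite element printed above, by PBRM1 replicate 3 at 1.46 ppm and by all BRG1 lists at 2.39, 2.59 and 2.66. So no PBRM1 library had both. The single distal region of *Id2*, 13.6 kb upstream, was low, at 0.606 ppm in PBRM1 replicate 1 and 0.630 and 0.665 in BRG1 replicates 2 and 3. At *Id1* the region 1.09 kb upstream (chr2:152735124-152735470) was taller than that at the start and gave the promoter heights above. A distal region 6.51 kb upstream had 1.36 and 1.33 ppm in PBRM1 replicates 1 and 3 and 2.33 in BRG1 replicate 1.

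The region 3.07 kb upstream of *Id3* (chr4:136140310-136140617) was the tallest of all 90. Its heights were 3.03 and 2.25 ppm in PBRM1 replicates 1 and 3 and 3.77, 3.64 and 4.19 with BRG1, and PBRM1 replicate 2 had no peak. Both PBRM1 values lay below all 3 BRG1 values. Of the 11733 distal regions in at least 4 lists, 99.9% were lower. This is the region whose run above carries the composite element on the plus strand, and a further match lay in an intron of *Id3*, in a region of BRG1 replicate 1 alone.

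Tall peaks at the *Id* genes were nevertheless weak against their surroundings. The deposited fold enrichment sets each peak against the background of its own library within 10 kb. Its mean over the 6 libraries was 2.93 at the *Id3* promoter, with a range of 2.62 to 3.21, and 3.32 at *Id2*, with a range of 3.00 to 3.75, whereas the median of the 9092 genes was 5.51. By height, *Id3* stood above 86.5% and *Id2* above 76.6% of these genes. By fold enrichment, only 0.055% lay below *Id3* and 0.55% below *Id2*. *Bmpr2* (mean 3.87, above 4.63%) and *Bmp2* (mean 3.95, above 5.86%) were low in fold enrichment too, without the height. The upstream region of *Id1* was tall, above 78.9% of promoter regions in at least 4 lists, and again low in fold enrichment (3.56-fold, above 6.17%). The region 3.07 kb upstream of *Id3* was less extreme, at 4.28-fold, above 36.1% of distal regions. Peaks are called against that local background, and its part in the missing peaks at the *Id* genes was not tested.

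**Figure D3:**
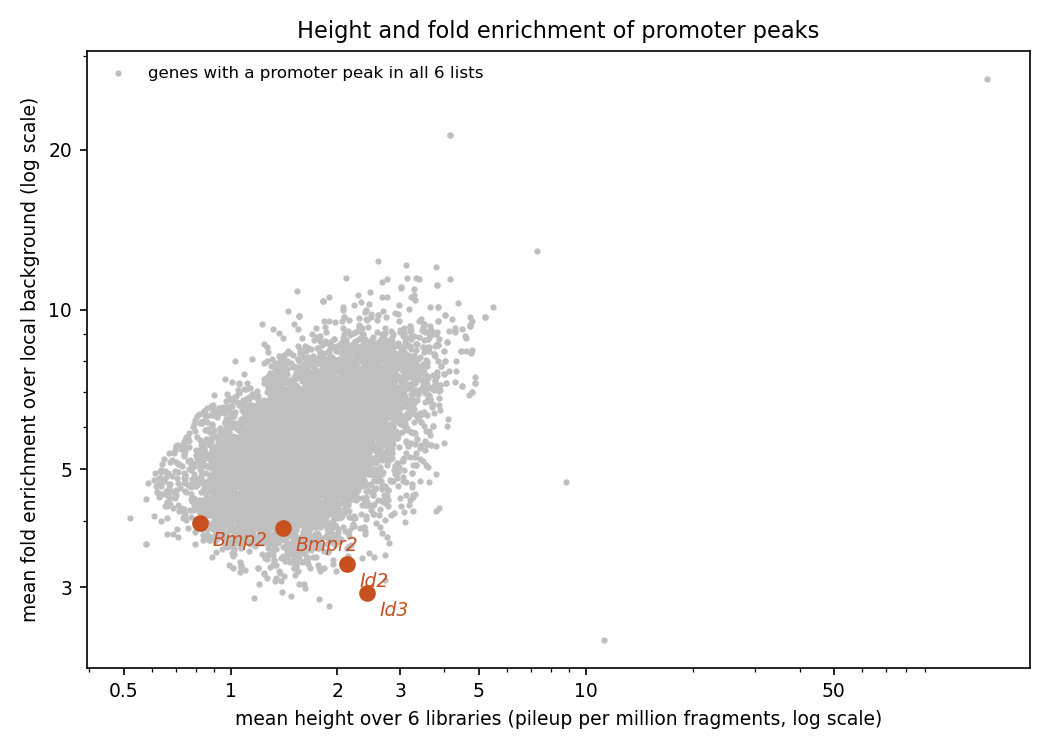
Mean height over the 6 libraries (x axis, ppm, log scale) against mean fold enrichment over local background (y axis, log scale) for the 9092 genes with a promoter peak in all 6 lists (gray), with the 4 of the 10 genes among them in orange. *Id2* and *Id3* lie on the lower edge of the cloud, tall but with 3.32-fold and 2.93-fold enrichment.

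Of the 12830 regions in all 6 lists, 92.8% had the higher mean height with BRG1, as the 4 promoters did. In all 4 genes with a promoter peak in every list, each BRG1 height exceeded each PBRM1 height. The background was 73.4% of the 9092 genes, and 0.121% had the opposite order. With fold enrichment in place of height, 1 of the 4, *Bmpr2*, did not overlap, against 34.3% of these genes. With all called promoter peaks of a gene summed, 3 of the 4 did not overlap, *Bmpr2* being the exception, against 55.7%. Such sums also depend on the number of peaks called in each library.

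The regions in all 6 lists were then tested together with limma, PBRM1 minus BRG1. Of the 12830, 52.9% were called higher with BRG1 and 0.413% higher with PBRM1, and their median log2 difference was −0.49. Of the 90 regions 5 entered, and 3 were called higher with BRG1: the promoters of *Bmp2* (log2 −0.97, SE 0.23, adjusted p = 0.00041), *Bmpr2* (−0.79, SE 0.21, adjusted p = 0.0011) and *Id3* (−0.59, SE 0.18, adjusted p = 0.0043). The distal regions of *Bmpr1a* and *Bmpr1b*, given above, were not. Relative to the shift, *Id3* sat close to the median, *Bmp2* and *Bmpr2* below it and the distal pair above it. Centring each library on its median over the 12830 regions, which leaves 2.45% called higher with BRG1 and 2.24% with PBRM1, removed the 3 calls (adjusted p = 0.167, 0.305 and 0.690) and turned the differences at *Bmpr1a* and *Bmpr1b* to 0.24 and 0.35 (adjusted p = 0.487 and 0.318). On fold enrichment, by which 10.7% were called higher with BRG1 and 0.218% with PBRM1, the *Bmpr1b* region alone was called (log2 −0.60, adjusted p = 0.0226). Without PBRM1 replicate 3, 5 of the 7 regions then tested were called higher with BRG1, against 37.9% of all regions tested. Shared promoter regions had a median of −0.59 and shared distal regions one of −0.27, so the split of the 5 also follows their class.

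**Figure D4:**
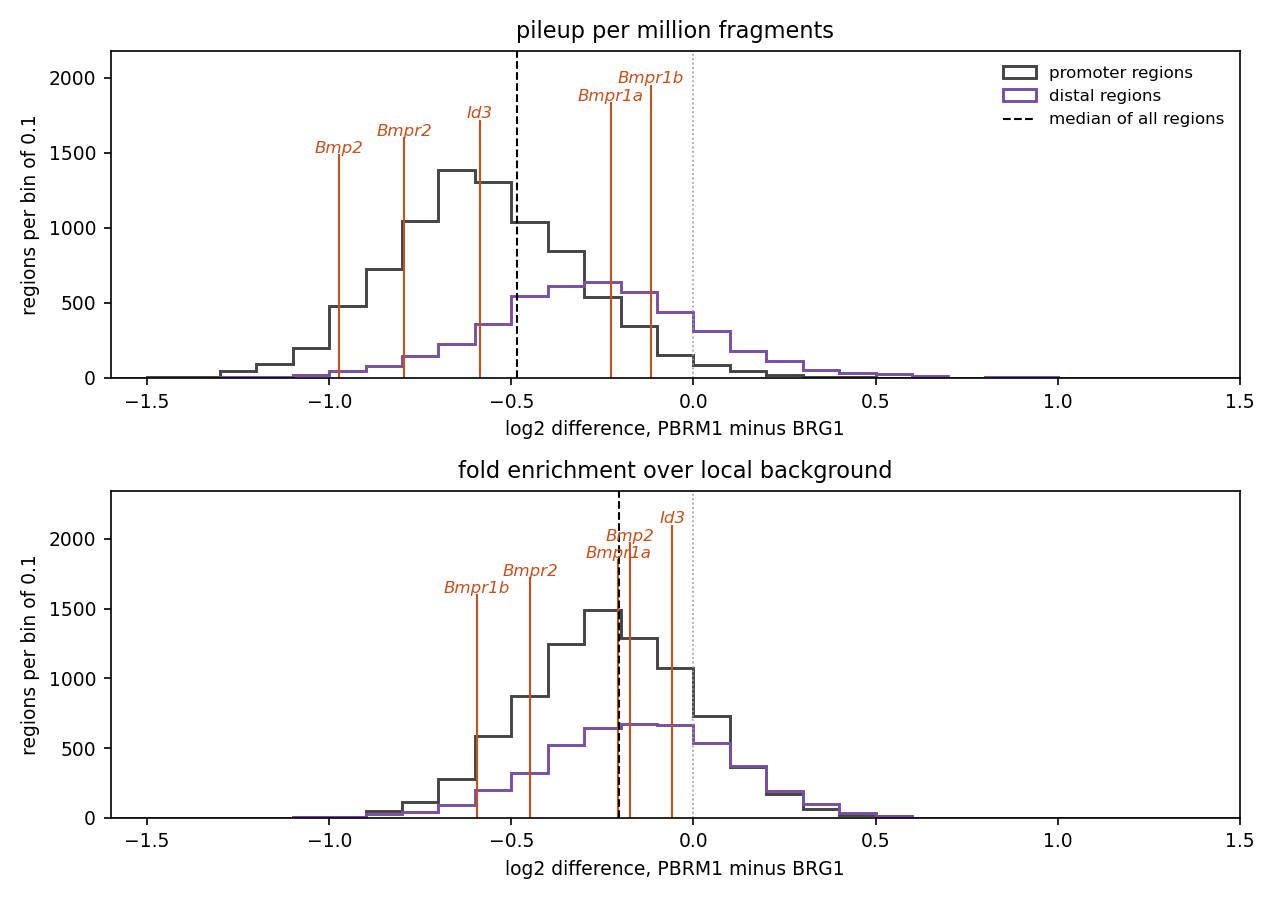
Number of regions (y axis, per bin of 0.1) by log2 difference, PBRM1 minus BRG1 (x axis), for the 12830 regions in all 6 lists, split into promoter and distal regions; upper panel by height in ppm, lower panel by fold enrichment. Orange lines mark the regions of *Bmp2*, *Bmpr1a*, *Bmpr1b*, *Bmpr2* and *Id3*; by height the median (dashed) is −0.49, with *Bmp2* at −0.97 and *Bmpr1b* at −0.12.

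Over all 10 windows, few regions were shared by every library. Of the 90 regions, 21 lay at a start of their gene, 2 at the start of another gene and 67 were distal. Only 5 were in all 6 lists (5.56%, against 15.5% of all regions), and 45 were in 1 list (50.0%, against 47.0%). Both antibodies shared 33 regions (36.7%, against 42.9% of all regions), PBRM1 lists alone held 30 (33.3%, against 26.7%) and BRG1 lists alone 27 (30.0%, against 30.4%). Single libraries held 24 to 37 of them with PBRM1 and 35 to 37 with BRG1.

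Sequence features differed between promoter and distal regions. GGCGCC occurred in 7 of the 21 promoter regions and 4 of the 67 distal ones, where 16.4% of all promoter regions and 2.16% of all distal regions hold it. TGANTCA occurred in 0 of the 21 and 17 of the 67, where the background is 10.0% and 22.6%. The palindrome GTCTAGAC was in none of the 90. The composite, which contains GGCGCC, was in 0.0821% of all promoter regions and 0.0139% of all distal regions. A match of letters is a description and does not show that a SMAD or AP-1 protein was bound.

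The rest of the pathway was given by a list of 52 genes, of which 51 were found by symbol. Promoter peaks in all 6 lists were found for 15 of the 51 (29.4%, background 41.4%), in 1 to 5 lists for 23 and in none for 13 (background 34.9%). The inhibitors that act inside the cell or at its membrane stood at one end, with all 6 lists for 6 of 7: *Bambi*, *Smad6*, *Smad7*, *Smurf1*, *Smurf2* and *Ski*. Several of these are themselves induced by BMP or TGF-β signals and restrain them. *Bambi*, a decoy receptor, had 2.32, 1.71 and 1.63 ppm with PBRM1 and 3.40, 2.80 and 3.86 with BRG1. *Smad6*, which blocks SMAD1 and its relatives, had 1.42, 1.71 and 1.46 against 2.71, 2.94 and 3.13. In both, every BRG1 height exceeded every PBRM1 height, as in 73.4% of genes with a promoter peak in every list.

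Secreted components stood at the other end by peaks in every list. Of 11 further ligands, only *Bmp8a* had a promoter peak in every list (9.09%, background 41.4%). In the replicate lists 6 had none (54.55%, background 34.9%): *Bmp5*, *Bmp8b*, *Bmp10*, *Bmp15*, *Gdf2* and *Gdf5*. Of 15 extracellular inhibitors, *Fstl1* alone had one in every list (6.67%). *Nog*, *Chrdl1*, *Chrdl2*, *Cer1*, *Sost* and *Sostdc1* had none in the replicate lists (40.0%, near the background). The pooled lists held promoter peaks for 10 of the 15 with PBRM1 and 9 with BRG1, against 65.4% and 67.3% of genes. *Nog* was among them, at 0.727 ppm with PBRM1 and 1.04 with BRG1. Of the 6 receptors and coreceptors found, *Acvr2b* and *Rgmb* had a promoter peak in every list (33.3%). *Eng*, a coreceptor best known from endothelium, had none in the replicate lists. The pooled lists held peaks of *Eng* at 0.517 ppm with PBRM1 and 0.487 with BRG1. Of the 4 SMADs, *Smad1*, *Smad9* and *Smad4* had a promoter peak in every list (75.0%, background 41.4%) and *Smad5* in 3.

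Among 8 further targets, *Runx2* and *Gata2* were in every list (background 41.4%) and 6 were in all BRG1 lists (background 49.6%). The first share lies below its background and the second above it, over only 8 genes, and neither difference was tested. Of the 51, *Atoh8* and *Bmp3* had the pattern of *Bmpr1a*, a promoter peak in all 3 BRG1 lists and no PBRM1 list (background 0.748%). *Atoh8* is a target in endothelium and liver, and *Bmp3* is a ligand that opposes other BMPs. The heights were 1.38, 1.26 and 1.53 ppm at *Atoh8* and 0.692, 0.700 and 0.865 at *Bmp3*. The pooled PBRM1 list held promoter peaks of 0.678 ppm at *Atoh8* and 0.323 at *Bmp3*, so pooling removed the pattern. No gene of the list had the opposite pattern in the replicate lists (background 0.105%). Of the 15 with a peak in every list, 13 had every BRG1 height above every PBRM1 height (background 73.4%), the exceptions being *Smurf1* and *Smad4*. The median log2 difference of these 15 was −0.77, against −0.59 for the 9092 genes, and that of the 4 among the 10 genes was −0.75.

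**Figure D5:**
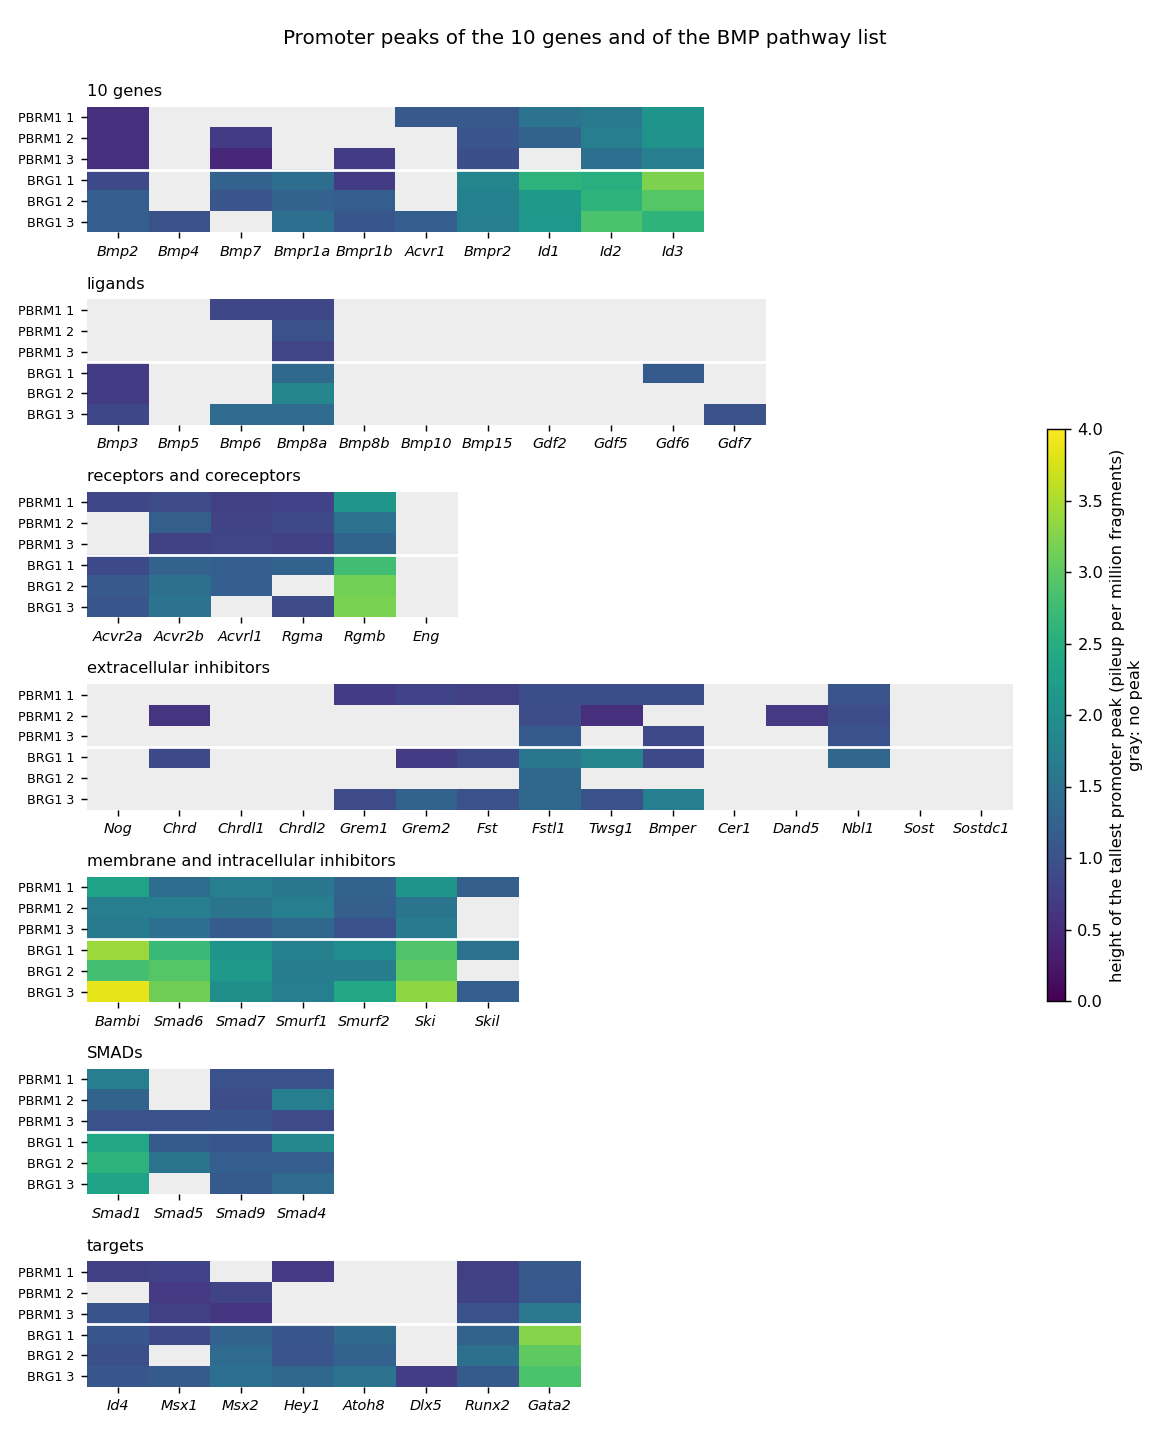
Height of the tallest promoter peak (color, ppm, gray for no peak) in each of the 6 libraries (rows, PBRM1 above the white line and BRG1 below) for the 10 genes and the 51 genes of the BMP pathway list (columns, by role). The membrane and intracellular inhibitors are filled in nearly every library. Gray throughout are 6 of 11 further ligands and 6 of 15 extracellular inhibitors, where 34.9% of all protein-coding genes have no peak.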

How the data were processed

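ChIC-Seq peak lists of 3 PBRM1 and 3 BRG1 libraries, and 1 pooled list per antibody, were used. The labels name cutadapt, Bowtie2, MACS2 and GRCm38.p5. Per the file headers, the authors used MACS 2.2.7.1 on fragments of paired reads, with no control file and q 0.05, so cleavage of open chromatin regardless of antibody may be included. The deposited pileup is unscaled signal (coverage at the summit), the deposited fold enrichment is its ratio to the library's own background within 10 kb, and significance is deposited as −log10 q. The study's paper describes another tissue and gave no values or settings here.

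Pileup was scaled to 1000000 header fragments. Peaks on autosomes, X and Y were merged at 1 bp overlap, and a region took its tallest peak per library. Regions in all 6 lists were compared on the log2 scale with limma 3.58.1 (empirical Bayes with trend, Benjamini-Hochberg adjustment over 12830 regions, threshold 0.05), after a test on simulated data, and single promoters with the exact permutation test of scipy 1.17.1. Depth limits precision: promoter heights rest on 10 to 51 fragments, and counting intervals were not computed. Annotation was GENCODE M21. All 10 genes were named, with their tallest promoter and distal regions in full. Genes of the pathway list were named when 1 antibody had all 3 lists and the other none, or no list had a peak; others were chosen after their values were seen. The 10 genes and the lists were chosen with earlier results of these data known. Alternatives varied distances, thresholds, merging, scaling and libraries.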

Additional observations from a re-analysis of the deposited data

How the results depend on the processing

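Under the alternatives, 159 of 185 values kept their direction, call or approximate count. Peaks at −log10 q of at least 5 left 2 genes with a promoter peak in every PBRM1 list and 2 in every list. They left 2 with all BRG1 lists and no PBRM1 list (*Bmpr1b* and *Bmpr2*), and 28 distal regions with 1 in every list. Of the 2 regions of the 10 genes then tested, 1 was called higher with BRG1, against 70.2% over the series. In the pooled lists, 10 genes had a promoter peak with PBRM1, 10 with both antibodies and 0 with BRG1 alone. In place of 3 of 5 regions called higher with BRG1 (52.9% over the series), 0 were called after centring (2.45%). On fold enrichment 1 was called (*Bmpr1b*, not among the 3, 10.7% over the series). Where 2 lists of each antibody sufficed, 7 of 15 were called (38.8% over the series). By fold enrichment, 1 of the 4 promoters did not overlap (34.3% over all genes). Centring reversed the differences at *Bmpr1a* (0.24) and *Bmpr1b* (0.35). Leaving out single libraries gave 1 to 2 genes with all BRG1 lists and no PBRM1 list, and 2 to 4 distal regions in every list. It also gave 3 to 5 regions called higher with BRG1, of 5 to 7 tested, against 37.9% to 48.7% over the series. Same-numbered libraries did not deviate together (correlations −0.0286 to 0.00374), and with a replicate block 3 regions were again called, with 6589 of 12830 against 6793 over the series. The cause of these changes was not tested.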

Other observations

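The 29 regions of the series with the composite of GGCGCC and GTCT were listed by the nearest start of a protein-coding gene, a look taken after the matches at *Id2* and *Id3* had been seen. Besides these 3 regions, 1 lay 1.58 kb from a start of *Id4*, the remaining *Id* gene, in 2 lists, and 1 lay 0.858 kb from a start of *Grem1*, a secreted BMP antagonist, in 1 list. In all 6 lists were 9 of the 29. Of those 9, 8 lay at the promoters of *Arhgap12*, *Atm*, *Crebrf*, *Ehd3*, *Fzd1*, *Slc6a9*, *Srd5a3* and *Yars2*, and 1 lay 11.2 kb from a start of *Fos*. Whether any of these matches is bound by SMAD proteins in these cells was not tested.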
